A study of Mus musculus with 3 samples.

Results

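The late phase of cementogenic induction was followed from day 14 against day 7 in OCCM-30, an immortalised mouse cementoblast line. The comparison took every protein-coding gene of the deposited gene table whose counts in the day 14 and day 7 libraries summed to 20 or more, which gave 11893 genes of 22077 protein-coding genes and of 46095 genes in all. The groups were OCCM-30 cells labelled wild type after 14 days in cementogenic medium, the same cells after 7 days in that medium, and cells with 0 days of induction, used to place each change. Each day had 1 library of total RNA, so every difference carries counting error only, no p-value is given, and variation between cultures is not covered. Day 14 and day 7 cells shared the line and the medium, and no culture kept for 14 days without induction was analysed here, so time in culture and induction cannot be told apart. What the medium contained is not given in the labels.

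Cementoblasts lay down cementum, the mineralised layer of the tooth root into which the fibres of the periodontal ligament insert. They share much of the osteoblast programme: Runx2 and Sp7 act as lineage transcription factors, type I collagen forms the scaffold, alkaline phosphatase supplies phosphate, and sialoproteins and osteocalcin bind mineral. Cells of this lineage also secrete insulin-like growth factors, which act on osteogenic cells in an autocrine way, and osteoprotegerin, the decoy receptor that restrains osteoclasts and with them resorption of the root.

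Levels are given as CPM, read counts scaled to the library total, corrected by TMM factors of 1.08, 0.966 and 0.962 for libraries of 13224690, 14034518 and 14439666 counts on days 0, 7 and 14. The words rose and fell are kept for genes with a ratio of scaled counts of at least 2-fold, where the 95% exact counting interval excluded 1 and the higher library held at least 1 CPM. Mitochondrially encoded genes took 1.67%, 1.11% and 1.80% of all counts on days 0, 7 and 14, and 3 counts, the floor used where a library had none, corresponded to between 0.211 and 0.221 CPM. Genes that cementoblasts share with osteoblasts were read as a check of the lineage, and they do not separate cementoblasts from osteoblasts. Sp7 stood at 9.70, 224 and 248 CPM on days 0, 7 and 14, Ibsp at 0.422, 69.9 and 85.7 CPM, Alpl at 53.1, 200.4 and 297 CPM, and Runx2 at 245, 462 and 602 CPM. These 4 genes were higher on day 14 than on day 0 and differed by less than 2-fold between day 14 and day 7. The other planned markers, Bglap, Bglap2, Col1a1 and Spp1, are given below and did not all follow this course. Bglap rose between day 7 and day 14, and Spp1 was within 2-fold of day 0 on day 14.

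Relative to day 7, 243 genes rose on day 14 (2.04% of the 11893) and 145 fell (1.22%), so that 3.26% passed in either direction. The same rule on the same genes passed 1206 higher (10.1%) and 1100 lower (9.25%) on day 7 than on day 0, and 964 higher (8.11%) and 702 lower (5.9%) on day 14 than on day 0. The median log2 ratio of day 14 over day 7 was 0.01 over all genes, and 6055 genes lay above 0. Most called genes were of low abundance: among 9370 genes with at least 10 CPM in the higher library 59 rose (0.63%) and 25 fell (0.267%), and among 2759 genes with at least 100 CPM 7 rose (0.254%) and 5 fell (0.181%).

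**Figure D1:**
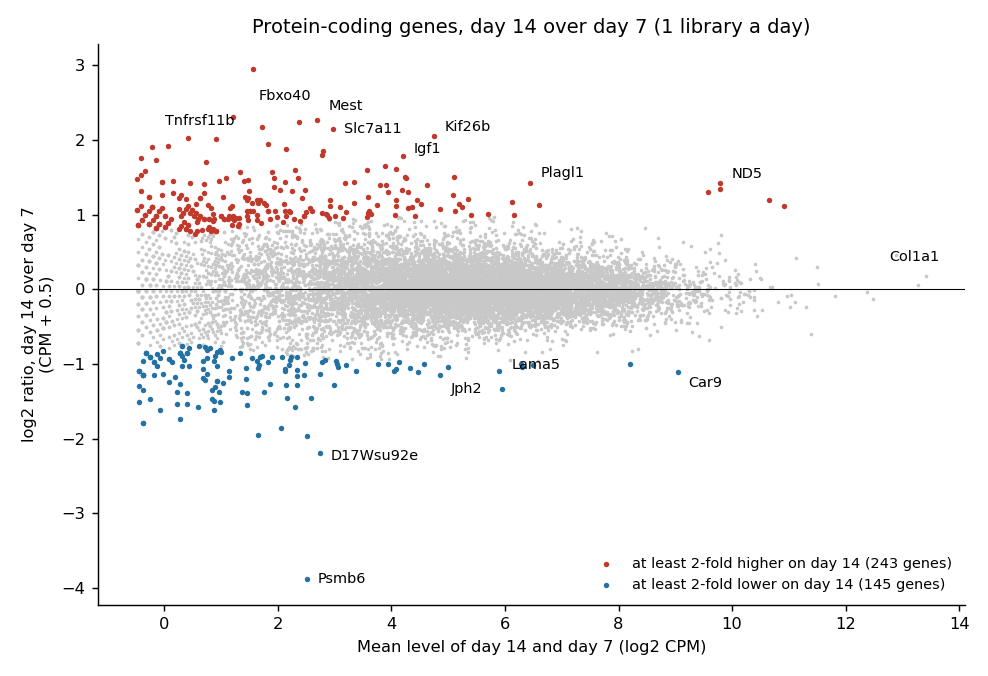
Log2 ratio of day 14 over day 7 (vertical axis, CPM with a pseudocount of 0.5) against the mean level of both libraries (horizontal axis, log2 CPM) for 11893 protein-coding genes, 1 point a gene. The 243 genes that rose and the 145 that fell lie mostly at the low end of the level axis, with Car9, ND5 and Plagl1 among the few called genes of high level.

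Igf1, which encodes insulin-like growth factor 1, had 401 counts on day 14 against 109 on day 7, or 3.30, 8.04 and 28.9 CPM on days 0, 7 and 14. It rose 3.59-fold (95% counting interval 2.90 to 4.48) after having risen in the first week. Tnfrsf11b, the gene of osteoprotegerin, had 80 counts on day 14 against 12 on day 7, or 9.0, 0.885 and 5.76 CPM on the 3 days, and rose 6.51-fold (3.53 to 13.1) back to a level within 2-fold of day 0. Mest, an imprinted gene of the mesoderm, stood at 34.1, 1.92 and 11.1 CPM and rose 5.78-fold (3.80 to 9.13), and Slc7a11, the cystine-glutamate exchanger, stood at 35.5, 2.58 and 13.1 CPM and rose 5.07-fold (3.52 to 7.51). Both were lowest on day 7 and remained below day 0. Car9, a carbonic anhydrase of the cell surface induced by hypoxia, had 4618 counts on day 14 against 9757 on day 7. It stood at 3.51, 720 and 332 CPM on the 3 days, fell 2.17-fold (2.09 to 2.24) and was still far above day 0. The file places Igf1 at chr10:87858265-87937047, Tnfrsf11b at chr15:54250619-54278484, Mest at chr6:30733506-30748466, Slc7a11 at chr3:50364936-50499087 and Car9 at chr4:43507026-43513729 (mm10).

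**Figure D2:**
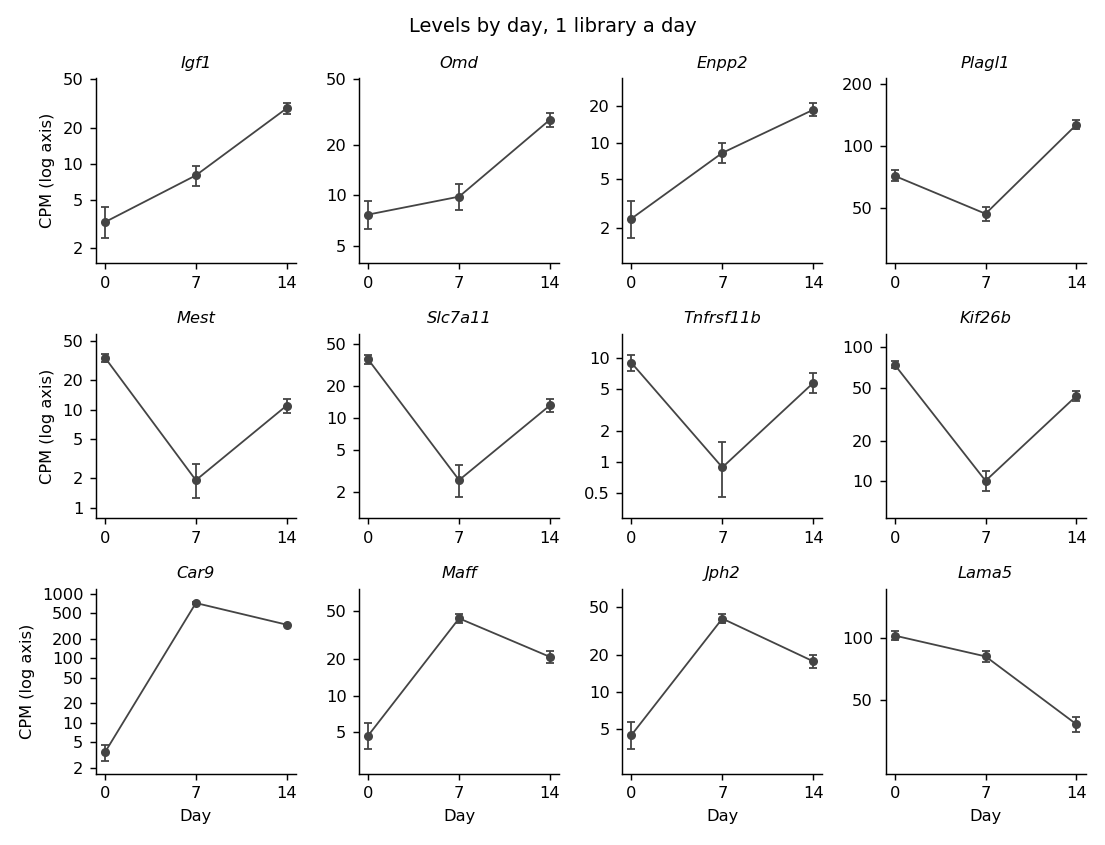
Level of 12 genes in CPM (log axis, its own range in each panel) on days 0, 7 and 14, 1 library a day, with bars for the 95% exact Poisson interval of the count. Igf1, Omd and Enpp2 were highest on day 14, Mest, Slc7a11, Tnfrsf11b and Kif26b were lowest on day 7, and Car9, Maff and Jph2 were highest on day 7.

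The 5 genes above show 2 of the courses that a gene could take. Of the 243 genes that rose, 162 (66.7%) had fallen between day 0 and day 7 and so moved back towards the start. A further 70 (28.8%) had not passed the rule in the first week and changed late, 2 of them, Gngt2 and Igfals (named after their values were seen), kept out of the first-week calls only by lying under 1 CPM on days 0 and 7, and 11 had already risen. Of the 145 genes that fell, 94 (64.8%) had risen in the first week, 45 changed late and 6 had already fallen. In both directions together 256 genes (66.0%) returned, 115 (29.6%) were late and 17 (4.38%) continued. Late means only that the first-week ratio did not pass the rule. Of the late genes, 38 that rose (54.3%) and 26 that fell (57.8%) were not apart from day 0 on day 14. The day 7 library enters both ratios, so a gene that was high or low in that library for any reason is placed among the returns, and no test of these shares is given.

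The returns were split by how near they came to day 0. Of the 162 genes that rose back, 82 were still at least 2-fold below day 0 on day 14, 78 were no longer apart from it by the rule, and 2 passed it. Kif26b, an atypical kinesin, stood at 74.3, 10.1 and 43.5 CPM on days 0, 7 and 14 and rose 4.30-fold (3.57 to 5.22), which left it within 2-fold of day 0. Efnb2 (ephrin-B2), at 27.4, 9.59 and 28.1 CPM, rose 2.93-fold (2.39 to 3.60), and Cemip, a hyaluronan-degrading protein of the cell surface, at 37.4, 13.4 and 36.1 CPM, rose 2.70-fold (2.27 to 3.22). The levels of Efnb2 and Cemip on day 14 were close to those of day 0. Gja1, the main connexin of osteoblasts, came only part of the way at 142, 17.7 and 51.0 CPM, rising 2.88-fold (2.49 to 3.35). The genes that passed day 0 were Fbxo40, a muscle ubiquitin ligase subunit with 123 counts on day 14, 20 on day 7 and 50 on day 0, and Lctl, a klotho-like glycosidase with 101, 22 and 50 counts.

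Of the 94 genes that fell back, 33 remained at least 2-fold above day 0 and 61 were no longer apart from it. Maff, a small Maf transcription factor, at 4.71, 43.3 and 20.9 CPM, fell 2.07-fold (1.80 to 2.40) and stayed well above day 0. Dexi, at 27.1, 103 and 51.5 CPM, and Btg2, an antiproliferative gene of the p53 and immediate early response, at 7.66, 20.6 and 10.1 CPM, fell 2.01-fold (1.84 to 2.20) and 2.04-fold (1.66 to 2.52), and were within 2-fold of day 0 on day 14.

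**Figure D3:**
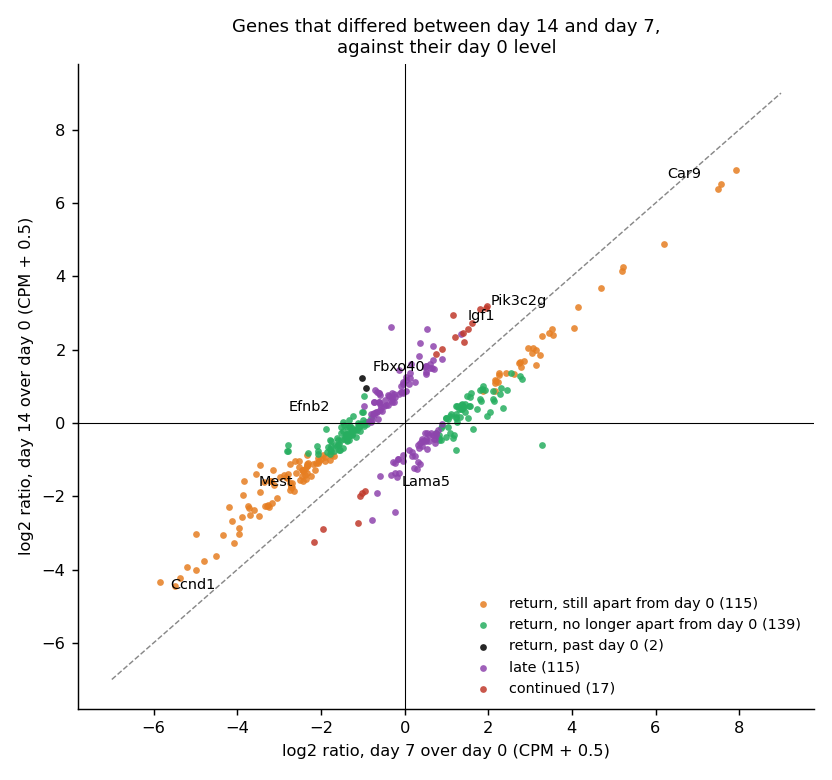
The 388 genes that rose or fell between day 14 and day 7, by their log2 ratio of day 7 over day 0 (horizontal axis) and of day 14 over day 0 (vertical axis), both with a pseudocount of 0.5 CPM, coloured by course. Points on the dashed line would have had the same level on day 14 and day 7; the 256 returns lie between that line and the horizontal axis or past the axis, 2 of them by more than 2-fold, and the 17 continued genes lie on the far side of the line.

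The 11 genes that rose in both weeks were Adam12, Adgrv1, Bglap, Car3, Enpp2, Fer1l6, Igf1, Itgal, Lcn2, Pik3c2g and Sash3, most of them named only to complete the count. Enpp2, which encodes autotaxin, the secreted enzyme that makes lysophosphatidic acid, stood at 2.39, 8.26 and 18.6 CPM and rose 2.26-fold (1.80 to 2.84). Pik3c2g, a class II phosphoinositide 3-kinase, stood at 2.81, 11.1 and 28.1 CPM and rose 2.54-fold (2.10 to 3.09), and Adam12, a membrane metalloprotease, at 1.12, 2.51 and 6.12 CPM, rose 2.44-fold (1.62 to 3.75). Lcn2 and Sash3 had 30 and 57 counts on day 14, against 14 and 20 on day 7 and 1 and 0 on day 0. The 6 genes that fell in both weeks were Artn, Eno3, Pik3r5, Ppcs, Rapgef3 and Tgif2, and Tgif2, a repressor of TGF-beta signalling, had the highest level among them at 11.5, 5.68 and 2.81 CPM.

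Among the 70 genes that rose late, 32 were at least 2-fold above day 0 on day 14. The other 38, Plagl1 and ND5 among them, were not apart from day 0 by the rule. Omd, the gene of osteomodulin, a proteoglycan of mineralised tissue, stood at 7.66, 9.81 and 28.4 CPM and rose 2.89-fold (2.37 to 3.55). Ackr4, an atypical receptor that scavenges chemokines, stood at 2.04, 2.80 and 10.9 CPM and rose 3.90-fold (2.72 to 5.73). Plagl1, an imprinted zinc finger transcription factor, had 1758 counts on day 14 against 634 on day 7, and at 71.4, 46.8 and 127 CPM rose 2.71-fold (2.47 to 2.97). Of the 45 genes that fell late, 19 ended below day 0, among them Lama5, the laminin alpha 5 chain of basement membranes, at 103, 81.3 and 37.9 CPM, which fell 2.15-fold (1.93 to 2.39). Omd, Ackr4 and Lama5 were thus within 2-fold between day 7 and day 0 and apart from both on day 14.

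The same question was asked from the side of the first week. The share of a gene's day 7 change left on day 14 was the log2 ratio of day 14 over day 0 as a percentage of that of day 7 over day 0; the ratios share libraries, and a gene chosen for a large change on day 7 leans towards a share under 100%, so the shares are descriptions. Of the 1206 genes higher on day 7 than on day 0, the median share left was 82.6% (quartiles 65.5% and 97.0%), 822 (68.2%) were still at least 2-fold higher, and 94 (7.79%) fell between day 7 and day 14. Of the 1100 genes lower on day 7, the median share left was 69.8% (52.7% and 86.3%), 603 (54.8%) were still at least 2-fold lower, and 162 (14.7%) rose. With at least 10 CPM in the higher of day 7 and day 0, the medians were 84.5% over 765 genes and 70.9% over 783 genes. Single genes spread widely around these medians: 85.1% of its change was left for Car9, 62.4% for Jph2, 41.1% for Mest, 39.6% for Slc7a11, 27.2% for Kif26b and 21.7% for Tnfrsf11b.

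**Figure D4:**
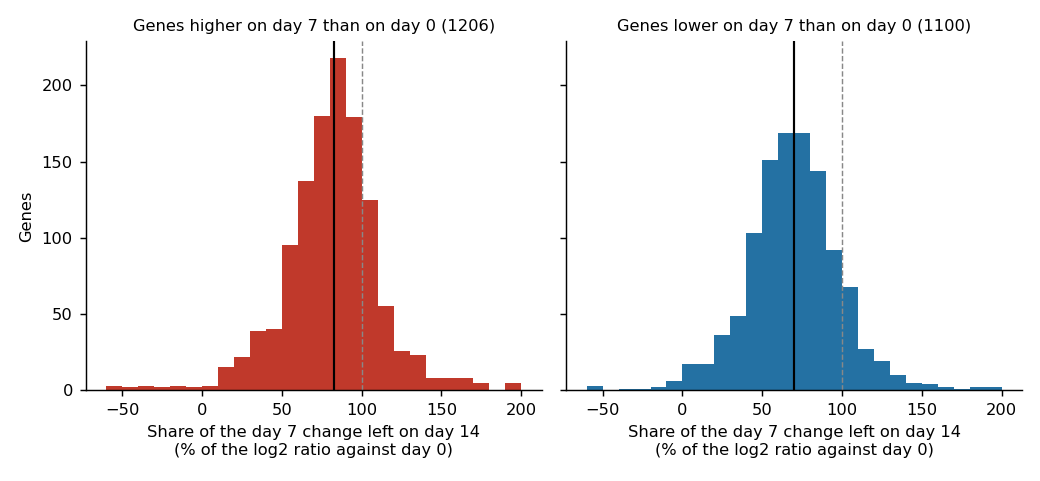
Number of genes (vertical axis) by the share of their day 7 change left on day 14 (horizontal axis, % of the log2 ratio against day 0), for the 1206 genes higher and the 1100 genes lower on day 7 than on day 0, with values beyond the axis placed in the end bins. Solid lines mark the medians, 82.6% and 69.8%, and the dashed lines mark 100%, where day 14 equals day 7.

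Amino acid supply genes under the transcription factor ATF4 had a median log2 ratio of 0.55 of day 14 over day 7, beside 0.01 over all genes. ATF4 is translated when amino acids run short or the endoplasmic reticulum is stressed, and switches on amino acid transporters, serine and asparagine synthesis and glutathione metabolism. Counts of called genes in this list and in those below are read beside the 2.04% of all genes that rose and the 1.22% that fell. Of 32 measured genes, 5 rose, none fell, 28 lay above 0 and 15 were at least 1.5-fold higher. The 5 were Slc7a11, the glutathione-degrading enzyme Chac1, the pseudokinase Trib3, the transcription factor Atf5 and the arginine transporter Slc7a3. Chac1 stood at 36.5, 10.2 and 26.3 CPM on days 0, 7 and 14 and rose 2.59-fold (2.12 to 3.17), Trib3 at 63.6, 8.63 and 22.1 CPM rose 2.56-fold (2.06 to 3.20), and Atf5 at 150.1, 34.4 and 69.5 CPM rose 2.02-fold (1.81 to 2.26). All 3 had fallen in the first week. The list as a whole had a median of -1.10 on day 7 over day 0, with 19 genes down, and of -0.53 on day 14 over day 0, with 8 down and 1 up. Against day 0, 9.25% of all genes were down on day 7 and 5.9% on day 14.

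Of the synthesis and transport genes of the ATF4 list, only the transporters Slc7a11 and Slc7a3 passed the rule. The others named here moved by less than 2-fold. Asns, asparagine synthetase, had 1670 counts on day 14 against 892 on day 7, a ratio of 1.83 (1.68 to 1.98), and stood at 224, 65.8 and 120.2 CPM on days 0, 7 and 14. Slc7a1, a cationic amino acid transporter, and Slc7a5, the large neutral amino acid transporter, had ratios of 1.77 (1.66 to 1.88) and 1.72 (1.59 to 1.87). The serine pathway genes Phgdh, Psat1, Psph and Shmt2 had log2 ratios of 0.66, 0.60, 0.60 and 0.76, and Atf4 itself 0.62, at 312, 146 and 224 CPM. The counting intervals of Asns, Slc7a1 and Slc7a5 lay above 1 and below 2. Ddit3, the stress factor CHOP, stood at 20.5, 24.8 and 24.1 CPM, with a log2 ratio of -0.04, and Pycr1, a proline synthesis enzyme, had the lowest log2 ratio of the list, -0.59.

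The promoters of 3 list genes are shown because their windows hold the sequence that ATF4 and C/EBP factors are known to bind, the amino acid response element. The 250 bases before the transcription start in the RefSeq table of build GRCm38.p6, the patched mm10 assembly, run as follows, 5′ to 3′ on the gene's strand, with matches to TGATGNAAN on either strand in capitals. They lie at chr3:50443614-50443863 (minus strand), chr2:119350992-119351241 (plus strand) and chr6:7693210-7693459 (minus strand).
Slc7a11: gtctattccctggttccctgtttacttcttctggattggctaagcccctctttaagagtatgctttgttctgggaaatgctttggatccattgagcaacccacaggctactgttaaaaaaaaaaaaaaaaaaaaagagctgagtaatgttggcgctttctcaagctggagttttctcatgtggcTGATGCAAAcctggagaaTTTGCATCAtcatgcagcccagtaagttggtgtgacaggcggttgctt
Chac1: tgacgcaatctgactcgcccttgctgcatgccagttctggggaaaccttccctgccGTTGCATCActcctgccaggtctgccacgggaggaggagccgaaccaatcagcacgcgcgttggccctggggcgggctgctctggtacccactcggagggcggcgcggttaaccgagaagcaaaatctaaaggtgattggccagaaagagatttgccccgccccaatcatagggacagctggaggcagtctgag
Asns: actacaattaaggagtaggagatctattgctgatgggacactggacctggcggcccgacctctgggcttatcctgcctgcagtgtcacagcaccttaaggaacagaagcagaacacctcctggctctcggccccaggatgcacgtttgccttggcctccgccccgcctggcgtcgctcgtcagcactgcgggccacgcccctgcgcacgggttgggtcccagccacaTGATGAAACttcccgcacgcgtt
Asns is shown although it did not pass the rule, and the same 250 bases of Trib3 and Atf5, which rose, hold no match. The matches begin 66 and 48 bases before the start in Slc7a11, 194 in Chac1 and 23 in Asns. Windows of 300 bases, from 250 before to 50 after the start, were found for 28 of the 32 list genes, and 10 of these (35.7%), Trib3 among them through a match that reaches past the start, held the motif, beside 250 of 9066 genes of the comparison with a window (2.76%) and 1215 of 27025 genes of the table (4.50%). Within the list, genes with a match had a median log2 ratio of 0.34 and those without had one of 0.58. A match is a run of letters and not a measured binding site.

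Other lists that depend on amino acid and redox supply moved less. Of 20 cytosolic tRNA synthetases none passed the rule in either direction, although 16 lay above 0, with a median log2 ratio of 0.22; Lars and Nars had 0.57 and 0.54. Of 29 antioxidant and glutathione genes only Slc7a11 rose and none fell, with a median of 0.08; Hmox1 (haem oxygenase 1), at 52.0, 17.9 and 26.3 CPM, had a log2 ratio of 0.54. Of 36 genes of folding and stress in the endoplasmic reticulum only Trib3 rose and none fell, with a median of -0.08; Hyou1 and Xbp1 had -0.45 and -0.46.

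Mest hosts a miRNA in an intron, miR-335, which gives a second readout at this locus from separate miRNA libraries. Both mature arms are shown with bases 2 to 8, the seed that pairs with targets, in capitals, as listed by RefSeq at chr6:30741314-30741336 and chr6:30741354-30741375 (plus strand, GRCm38.p6).
mmu-miR-335-5p: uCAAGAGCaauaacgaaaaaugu
mmu-miR-335-3p: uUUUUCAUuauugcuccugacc
The 5p arm had 2662, 1704 and 499 counts on days 0, 7 and 14, or 76.4, 59.3 and 24.4 CPM in miRNA libraries of 34855863, 28729986 and 20443074 counts. The 3p arm had 1276, 4106 and 290 counts, or 36.6, 143 and 14.2 CPM. Both arms were lowest on day 14, while Mest was lowest on day 7, and the 2 seeds differ. Of 15 measured imprinted genes, Mest and Plagl1 rose, none fell and the median was -0.03; Copg2, the neighbour of Mest that overlaps it on the opposite strand, stood at 70.0, 109 and 83.1 CPM with a log2 ratio of -0.39. The labels do not give the strand setting of the counting, so reads from the overlap cannot be told apart.

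Igf1 was the only called gene in the list drawn up for its axis, which did not hold Igfals, named above among the late genes. Of 16 measured genes of the IGF axis, Igf1 rose and none fell, and the median log2 ratio was -0.19. Igf2, at 6.18, 185 and 154 CPM, had a log2 ratio of -0.26, and the receptor gene Igf1r, at 190.1, 683 and 501 CPM, had -0.45. Pappa, a protease that frees IGF from its binding proteins, stood at 0.0703, 17.6 and 10.4 CPM with -0.73, and Htra1, another secreted protease, had -0.30. Genes of FGF and ERK feedback had 0 of 21 called in either direction and a median of 0.10. In the BMP and TGF-beta pathway 1 of 42 rose, the BMP antagonist Chrdl1 with 25 counts on day 14 against 8 on day 7, and none fell; the median was 0.18, and Smad3, Tgfbr2 and Bmpr2 had log2 ratios of 0.60, 0.50 and 0.31. In the Wnt pathway 1 of 26 rose, the R-spondin receptor Lgr6 at 52.8, 1.18 and 5.97 CPM, by 5.06-fold (2.94 to 9.26), and none fell; the median was 0.08, and the Wnt inhibitor Wif1 had -0.50. Of 19 Notch and Hedgehog genes none passed in either direction, with a median of 0.04; Lfng, the fringe enzyme that modifies Notch, stood at 17.1, 65.2 and 119 CPM with 0.87.

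The genes that passed the rule in the lists of the mineral programme all rose, where 2.04% of all genes rose and 1.22% fell. Log2 ratios in each of these lists lay on both sides of 0, and no set test was run. Bglap, Bglap3, Twist2 and Dlx6 were among the genes of lowest level, with a mean of 0.722 to 8.27 CPM, of which 8.07% rose and 5.25% fell. Of 17 measured genes of the mineralised matrix, 3 rose, none fell and the median log2 ratio was 0.24. Omd is described above. Bglap and Bglap3, of the osteocalcin cluster, had 69 and 26 counts on day 14 against 29 and 12 on day 7, and Bglap2 had a log2 ratio of 0.61; these near-identical copies can share reads, so their split is uncertain. Ibsp (bone sialoprotein), Postn (periostin) and Col1a1 had 0.29, 0.33 and 0.18, with Postn at 71.5, 1201 and 1516 CPM. Spp1 (osteopontin) and Tnn (tenascin W) went the other way, at 202, 318 and 239 CPM with -0.41, and at 0.0703, 415 and 238 CPM with -0.80. Tnn therefore had a ratio of 1.74-fold lower on day 14, short of the rule.

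Of 11 genes of phosphate and pyrophosphate handling, Enpp2 rose, none fell and the median was 0.18. Alpl (alkaline phosphatase) had a ratio of 1.48, or 0.57 on the log2 scale, and Phex, a peptidase that protects mineralisation, 0.59, while Smpd3 (neutral sphingomyelinase) had -0.64. Of 28 osteoblast transcription factors, Twist2 and Dlx6 rose, none fell and the median was 0.24. Twist2, an inhibitor of osteoblast maturation, had 36 counts on day 14 against 9 on day 7 and 212 on day 0, and Dlx6 had 21 against 7. Runx2 had a ratio of 1.30, Sox4 had a log2 ratio of 0.78, and Cebpd had -0.73. Osteocyte markers were few: none of 6 measured passed in either direction, and the median was 0.20.

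Genes through which this lineage acts on osteoclasts included 3 of 16 that rose and none that fell, with a median of 0.32. The median was 0.19 with a pseudocount of 2 CPM. The 3 genes were Tnfrsf11b, Efnb2 and Sema3a, all lower on day 7 than on day 0. Tnfrsf11b and Sema3a were among the genes of lowest level, with a mean of 0.722 to 8.27 CPM, of which 8.07% rose and 5.25% fell. Sema3a, a semaphorin that restrains osteoclasts, had 31 counts on day 14 against 10 on day 7 and 727 on day 0, so its rise left it far below the start. Csf1, the macrophage growth factor that osteoclast precursors need, stood at 193, 105 and 184 CPM with a ratio of 1.75. Tnfsf11, which encodes RANKL, the ligand that osteoprotegerin binds, stood at 6.26, 3.02 and 1.80 CPM with a log2 ratio of -0.62. Tnfrsf11b and Tnfsf11 had log2 ratios of 2.18 and -0.62, and only Tnfrsf11b passed the rule. Tnfsf11 was also of the lowest level, so the sign of its ratio rests on few counts.

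Other matrix lists are set beside the 2.04% of all genes that rose and the 1.22% that fell. At those shares a list of 40 genes can readily hold none past the rule. None of 40 collagens and crosslinking enzymes passed the rule in either direction, with a median of -0.03; Col20a1 stood at 40.9, 127 and 64.9 CPM with a ratio of 1.96-fold lower, and Col11a1 had a log2 ratio of 0.49. Of 36 matrix glycoproteins and proteoglycans, Omd, Wisp1 and Fbn1 rose, none fell and the median was 0.08. Wisp1 (CCN4), a matricellular protein of bone, stood at 183, 60.9 and 133 CPM and rose 2.19-fold (2.01 to 2.38), and Fbn1 (fibrillin 1) had 20 counts on day 14 against 1 on day 7 and 77 on day 0. Of 31 matrix proteases and inhibitors, Htra3, Adam12, Mmp16 and Adamts6 rose, none fell and the median was 0.05. Htra3, a secreted serine protease, stood at 23.2, 10.5 and 23.2 CPM and rose 2.22-fold (1.82 to 2.72), and Mmp16 had 56 counts on day 14 against 14 on day 7 and 231 on day 0.

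Guidance genes that had been low on day 7 were among those that rose. Of 41 measured axon guidance genes, 6 rose, Efnb2, Sema3a, Sema3c, Sema3e, Slit2 and Epha7, and 1, Ephb6, fell; the median was 0.21. Of all genes, 2.04% rose and 1.22% fell. Among the genes of lowest level, with a mean of 0.722 to 8.27 CPM, 8.07% rose and 5.25% fell. Sema3a, Sema3c, Sema3e and Slit2 were of that level. Sema3e, at 43.9, 2.51 and 6.98 CPM, rose 2.78-fold (1.87 to 4.25). Sema3c and Slit2 had 27 and 45 counts on day 14 against 7 and 19 on day 7, where day 0 had 526 and 858. Sema3a, Sema3c, Sema3e and Slit2 were all still far below day 0. Efna5 (ephrin-A5) and Ntn4 (netrin 4) had log2 ratios of 0.86 and 0.88.

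Of 34 genes of adhesion, Vcam1 and Cd34 rose, Lama5 and Lamc3 fell, and the median was 0.03. Cd34, a surface sialomucin of progenitors, stood at 135, 4.35 and 9.36 CPM and rose 2.15-fold (1.57 to 2.98), and Lamc3, a laminin gamma chain with 0 counts on day 0, at 122 and 59.7 CPM on days 7 and 14, fell 2.04-fold (1.87 to 2.22). Cdh2 (N-cadherin), at 77.3, 37.7 and 74.1 CPM, had a ratio of 1.97, just short of the rule. Among 28 genes of microtubules and motors, Kif26b and Nav3 rose, none fell and the median was 0.03; Nav3, which binds microtubule ends, stood at 27.9, 2.73 and 11.2 CPM and rose 4.09-fold (2.84 to 6.02). Tfap2b, an AP-2 transcription factor of the neural crest, at 69.1, 6.93 and 22.7 CPM, and Slc26a7, an anion exchanger, at 57.1, 8.19 and 25.9 CPM, followed the same course and rose 3.28-fold (2.60 to 4.18) and 3.16-fold (2.55 to 3.95).

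Genes of the response to low oxygen were mostly a little lower on day 14 than on day 7, with Car9 alone past the rule. Of 37 measured hypoxia effectors Car9 fell, none rose, and 11 lay above 0; the median log2 ratio was -0.15. On day 7, 19 of the 37 were higher than on day 0, and on day 14 17 were, beside 10.1% and 8.11% of all genes. P4ha1 (a collagen prolyl hydroxylase), at 211, 612 and 418 CPM, had a log2 ratio of -0.55, Bnip3 (a mitophagy receptor), at 84.1, 419 and 293 CPM, -0.52, and Ak4 (adenylate kinase 4), at 22.8, 44.5 and 26.4 CPM, -0.74. Vegfa and Pdk1 had -0.15 and -0.06, and the metallothionein genes Mt1 and Mt2, at 0.61 and 0.54, lay on the other side of 0. Of 25 glycolysis genes Eno3 fell, on an alternate scaffold with 3 counts on day 14 against 23 on day 7, none rose and the median was -0.15; Pkm and Gpi1 had -0.09 and -0.47.

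Genes induced by glucocorticoids stood well above day 0 on both days. Of 22 measured, 17 were higher on day 7 than on day 0 and 19 on day 14, beside 10.1% and 8.11% of all genes. The medians were 2.35 and 2.08 on the log2 scale. Between day 14 and day 7, Lcn2 rose on low counts, Errfi1 fell, 5 lay above 0 and the median was -0.23. Errfi1 was listed on a scaffold outside the chromosomes and is uncertain as a change of expression. Zbtb16, with 0 counts on day 0, stood at 9.88 and 4.97 CPM on days 7 and 14, a ratio of 1.99-fold lower that just missed the rule, and Fkbp5 had a ratio of 1.92-fold lower. Tsc22d3 and Per1, at 196 CPM each on day 14 against 246 and 230.0 CPM on day 7, had log2 ratios of -0.33 and -0.23. Of 27 immediate early and KLF genes, Maff, Btg2 and Fosb fell, none rose and the median was -0.24. Fosb had 43 counts on day 14 against 85 on day 7, and the related gene Fos and the flow-responsive factor Klf2 had log2 ratios of -0.93 and -0.92.

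Of 21 muscle genes, Actg2, Jph2 and Hspb7 fell, Fbxo40 rose and the median was -0.17. Jph2 (junctophilin 2), which links the cell surface to calcium stores, stood at 4.43, 40.1 and 17.9 CPM and fell 2.24-fold (1.93 to 2.62). Hspb7, a small heat shock protein of heart muscle, at 0.0703, 107 and 51.8 CPM, fell 2.06-fold (1.89 to 2.26), and Actg2, a smooth muscle actin, at 0.0703, 9.0 and 2.95 CPM, fell 3.05-fold (2.13 to 4.46). These 3 had been at or under 63 counts on day 0 and stayed above it. Hspb1 (HSP27), another small heat shock gene, at 2.95, 22.8 and 10.4 CPM, fell 2.20-fold (1.80 to 2.70), and Rcan2, a calcineurin regulator, at 0.141, 23.1 and 10.8 CPM, fell 2.14-fold (1.76 to 2.62).

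Transcripts of the mitochondrial genome had the highest median of the lists with 10 or more measured members, 1.11 over 11 genes, of which 6 rose and none fell; it was 0.57 with a pseudocount of 2 CPM, beside 0.47 for the ATF4 list, and 0.78 with summed counts of 100 or more. ND5, a subunit of complex I, had 17938 counts on day 14 against 6538 on day 7, or 944, 482 and 1291 CPM on days 0, 7 and 14, and rose 2.68-fold (2.60 to 2.75). ND1, ND2, ND4 and CYTB rose between 2.16-fold and 2.54-fold, and ND3 did so on 18 counts against 3. COX1, at 9000.5, 6382 and 8743 CPM, had a log2 ratio of 0.45, and ND6, encoded on the opposite strand, had 18033 counts on day 14 against 18880 on day 7, a log2 ratio of -0.10. Genes of the same molecule thus did not all move alike. COX2, COX3 and ATP6 had at most 180 counts in a library, far under their neighbours; nuclear copies of mitochondrial DNA can share reads with these genes, and how such reads were counted is not given. The mitochondrial share of all counts differed with the day, at 1.80% on day 14 and 1.11% on day 7, and its part in the result was not tested. Of 70 nuclear genes of oxidative phosphorylation none passed in either direction, 16 lay above 0 and the median was -0.16, with Atp5b at -0.16 and Sdhd at -0.50.

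Lists of ribosomal and proliferation genes had medians under that of all genes with few members past the rule. Of 77 cytosolic ribosomal protein genes, Rpl37a fell, none rose, 15 lay above 0 and the median was -0.30. Rpl37a stood at 247, 393 and 195 CPM and fell 2.01-fold (1.92 to 2.11); ribosomal protein genes have many processed copies, so its counts are uncertain. Of 58 genes of replication and mitosis none passed in either direction, 14 lay above 0 and the median was -0.15. Mki67, at 968, 1217 and 1338 CPM, had a log2 ratio of 0.14, and Top2a and Mcm10 had -0.28 and -0.53. Of 29 cell cycle and p53 genes, Ccnd1 rose, Btg2 fell and the median was -0.10. Ccnd1 (cyclin D1) had 19 counts on day 14 against 2 on day 7, where day 0 had 527, so 73.9% of its first-week fall was left. Replication-dependent histones, 34 of them measured, had a median of -0.00 and none past the rule in either direction.

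Of 38 interferon-stimulated genes, Ifi44, Isg15 and Gbp3 rose, Oas1b fell and the median was 0.08. Ifi44 stood at 49.8, 5.24 and 15.0 CPM and rose 2.86-fold (2.17 to 3.80), Isg15, a ubiquitin-like modifier, had 45 counts on day 14 against 17 on day 7, and Gbp3, a guanylate-binding protein, had 23 against 1 with 112 on day 0. The median of the list against day 0 was -0.52 on day 7 and -0.52 on day 14. Of 18 genes of chemokines and inflammation, Vcam1 and Lcn2 rose, none fell and the median was 0.10, with Hp (haptoglobin) and Serping1 (the C1 inhibitor) at -0.75 and -0.56. None of 14 antigen presentation genes passed in either direction, with a median of 0.20.

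Lipid genes had 1 gene past the rule in each of 2 lists. Of 29 genes of fatty acid and adipocyte metabolism, Elovl6, which elongates fatty acids, rose 2.27-fold (2.05 to 2.50) at 219, 42.7 and 96.8 CPM, none fell and the median was 0.11. Of 30 genes of cholesterol synthesis and uptake, Npc1l1, a sterol transporter, fell at 0.351, 5.38 and 1.94 CPM, none rose, 24 lay above 0 and the median was 0.21, with Nsdhl and Sqle at 0.69 and 0.57. Against day 0 on day 7 that list had had a median of -0.67. Lysosome and autophagy genes (38), circadian clock genes (21) and ion channels (26) had medians of -0.13, -0.09 and 0.01 and none past the rule in either direction; the clock repressor Nr1d1, at 26.6, 129 and 72.1 CPM, had a log2 ratio of -0.83.

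**Figure D5:**
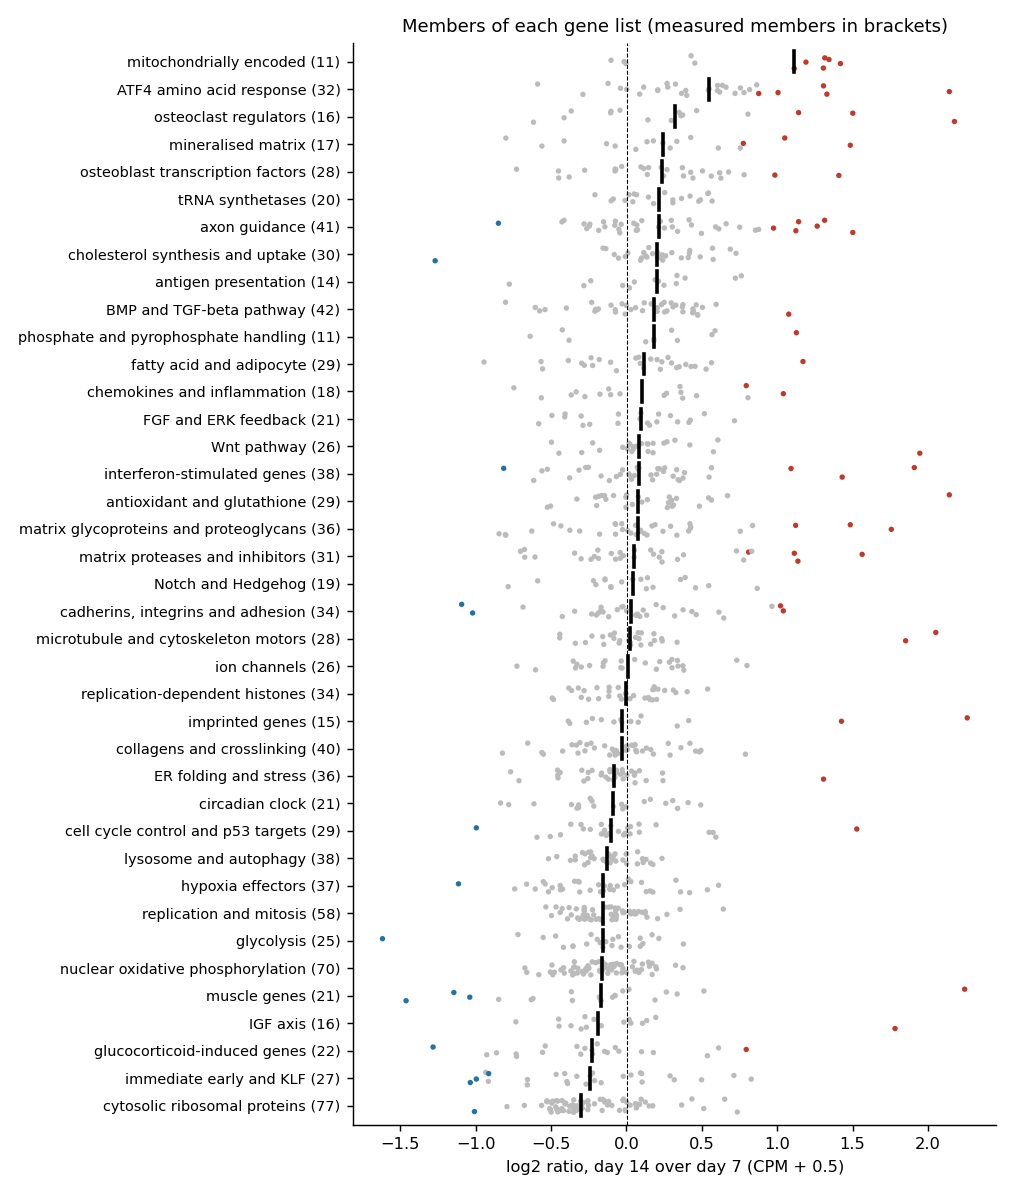
Log2 ratio of day 14 over day 7 (horizontal axis, CPM with a pseudocount of 0.5) for the measured members of each gene list of 10 or more, 1 point a gene, red where the gene rose, blue where it fell and grey otherwise, with a black bar at the list's median. The dashed line is the median of all 11893 genes, 0.01; the mitochondrially encoded list lies highest at 1.11, the ATF4 list next at 0.55, and the ribosomal protein list lowest at -0.30.

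Some called genes were listed on scaffolds outside the chromosomes, which carry second copies of chromosomal sequence and can split its reads. They numbered 20 of the 388 called genes and 303 of the 11893 compared. With the pseudocount, the widest log2 ratios in both directions were among them. Psmb6, a proteasome subunit, had 4 counts on day 14 against 151 on day 7 and 10 on day 0, which is 38.7-fold lower (14.8 to 144). Slc39a7, a zinc transporter singled out after its values were seen, had 78 counts on day 14 against 4 on day 7 and 7 on day 0. These 2 are uncertain as changes of expression, and so are Dlg4, Errfi1 and Eno3. On the chromosomes, D17Wsu92e had 29 counts on day 14 against 154 on day 7 and 191 on day 0, and fell 5.44-fold (3.64 to 8.40).

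Markers of other cell types were read beside these results. The summed level of 17 macrophage and osteoclast markers was 51.1, 56.2 and 51.9 CPM on days 0, 7 and 14, and 7 of them, Adgre1, Itgam, Tyrobp, Aif1, Ocstamp, Dcstamp and Calcr, had 0 counts in all libraries; Acp5, tartrate-resistant acid phosphatase, fell to 29 counts on day 14 against 59 on day 7, and had 0 on day 0. Of 12 endothelial markers Cdh5, Kdr, Emcn, Erg and Cldn5 had 0 counts, and the sum of 78.4, 186 and 222 CPM was nearly all Flt1, at 70.7, 181 and 216 CPM; Pecam1 fell on 14 counts against 32. Epithelial markers summed to 4.43, 1.11 and 0.792 CPM with Epcam among 9 of 15 at 0, adipocyte markers to 3.58, 24.7 and 25.3 CPM with Adipoq at 0, and neural and glial markers to 15.7, 10.8 and 13.0 CPM. The 1 adipocyte marker measured was at least 2-fold higher than day 0 on both later days. Of 4 measured neural and glial markers, S100b, with 25, 62 and 102 counts, was higher than day 0 on both later days, and on each 2 were lower. Periodontal ligament and tendon markers summed to 519, 1731 and 2180 CPM, carried by Postn and Pdgfra with Tnmd at 0, and chondrocyte markers to 35.1, 45.3 and 59.5 CPM with Acan at 0. Of 3 measured chondrocyte markers, 1 was higher on day 7 and 2 on day 14 than on day 0. The part of other cells in the changes was not tested. In such libraries fewer cells of a kind and less RNA per cell cannot be told apart.

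The called genes were described by base composition, length, level and chromosome, of which the call rule itself uses level. Over 11464 genes with a known GC content of their longest transcript, split into 5 equal bins, 1.48% of the bin with the highest GC rose and 2.22% fell, and 2.22% of the bin with the lowest GC rose and 0.349% fell; the medians were -0.05 and 0.06. By gene length the medians ran from -0.05 in the bin of the shortest genes (206 to 1845 bases) to 0.04 in that of the longest. The bin of lowest level, with mean CPM from 0.722 to 8.27, held 192 of the 243 genes that rose and 125 of the 145 that fell. Over all genes 2.04% rose and 1.22% fell. Chromosome 13 had 12 of 470 genes up (2.55%) and 0 down, and chromosome 3 had 18 of 572 up (3.15%) and 1 down. Chromosome 18 had 11 of 324 up (3.40%) and 1 down. Chromosome 17 had 3 of 500 up (0.6%) and 8 down (1.6%), and chromosome 11 had 15 of 922 up (1.63%) and 20 down (2.17%). These chromosomes were picked by their values, and no test by position was run. The part of base composition and level in the ratios was not tested.

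The count threshold left out 10184 protein-coding genes, of which 7531 had 0 counts in both libraries and 200 had 20 or more on day 0. The 47 genes with exactly 20 counts had log2 ratios between -1.51 and 1.47 with a median of -0.02, and the 40 with 19 counts lay between -1.03 and 0.99 with a median of -0.11. At the 2-fold line, 70 genes had a ratio between 2 and 2.1 in either direction with at least 1 CPM in the higher library, 52 of which passed the interval as well, and 77 genes had one between 1.9 and 2.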

How the data were processed

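Total RNA of OCCM-30 cells was sequenced with 1 gene library and 1 miRNA library on each of days 0, 7 and 14. The submitters' processing notes name mm10 as the build and list the tools DESeq, HTSeq, Cufflinks, TopHat and HISAT2, without versions or roles. The authors deposited whole-number counts per gene and per mature miRNA, and FPKM values that equalled the count over the listed gene length and library total for 98.8% to 98.9% of detected genes, within a relative tolerance of 0.001. Columns were assigned to days by their names and the sample titles.

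Here counts of all genes were scaled by TMM factors (edgeR 4.0.16, R 4.3.3). The log2 ratio used a pseudocount of 0.5 CPM, folds are ratios of scaled counts without it, and the counting interval is the exact Clopper-Pearson 95% interval conditional on the summed count of both libraries. It covers counting error alone, because each day had 1 library. Sequenced reads that carry no molecular identifier need not be separate molecules, so the interval can be too narrow even for counting error. With 1 library per day no replicated test was possible. Depth was 13224690, 14034518 and 14439666 counts on days 0, 7 and 14.

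The comparison, its 5 marker genes, the 40 gene lists and 7 marker lists were chosen with earlier results of these data known, so none is independent support. A list's measured members are those among the 11893 genes compared. Named were the 12 called genes of greatest log2 ratio each way at 10 CPM or more, the first 6 in each direction of 100 CPM or more, the 5 marker genes, up to 4 members of each list of 5 CPM or more by ratio with its most abundant member, and the first 6 of each course; some of these are not reported here, and other genes named to complete a count or as examples of a list were chosen after their values were seen. Promoter windows and mature miRNA sequences came from RefSeq (GRCm38.p6), and GC content from the GENCODE transcripts of GRCm38. Motif shares of the hypoxia, interferon and tRNA synthetase lists were counted but are not reported, because under 80% of those lists had a promoter window. The procedure was tested on simulated counts. Alternatives were DESeq2 1.42.0 size factors, library totals, factors from both later libraries alone, totals without mitochondrial genes, other folds, minimum levels and pseudocounts, and the authors' FPKM. Ratios and intervals were computed in Python 3.11.15 (scipy 1.17.1, pandas 2.3.3, numpy 2.4.6) and drawn with matplotlib 3.10.9.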

Additional observations from a re-analysis of the deposited data

How the results depend on the processing

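No paired analysis was possible because each day had 1 library. The counts of genes that rose, fell, returned, continued and changed late stayed within 1.5 times the values given under DESeq2 size factors, library totals alone, totals without mitochondrially encoded genes, no minimum level, pseudocounts of 0.1 and 2 CPM, the authors' FPKM and, chosen after seeing the data, without scaffold genes. Factors from day 14 and day 7 alone gave 232 genes up and 146 down, and no courses, since day 0 is not in that scaling. The size and level rules moved the counts by their own construction. A 1.5-fold rule gave 651 up and 468 down, with 804 returned, 58 continued and 257 late. A 3-fold rule gave 74 and 53, with 75, 1 and 51, so the balance of returns and late changes differs from that at 2-fold. A minimum of 5 CPM gave 92 and 50, with 104, 4 and 34. Genes with summed counts of 100 or more, 10542 of them, gave 90 and 48, with 105, 6 and 27. Among rules chosen after seeing the data, a stricter counting interval gave 137 and 84, with 156, 9 and 56, and a minimum of 10 CPM gave 59 and 25, with 63, 1 and 20. No list median left the interval that its genes give under the alternatives that bear on it, but 2 medians near 0 changed sign with summed counts of 100 or more, to -0.12 for chemokines and inflammation and to -0.03 for Notch and Hedgehog. The median of the mitochondrially encoded list was 0.57 with a pseudocount of 2 CPM and 0.78 with summed counts of 100 or more. Of the alternative values for named genes 2308 kept their side of the rule, 42 lost it, 41 of them under the 3-fold rule, and 66 gained it, 65 of them under the 1.5-fold rule; 4 values, of Sqstm1 and Srebf2 with log2 ratios of 0.00 and 0.01, changed sign under another scaling without passing the rule. Depth limits genes under about 20 counts, and no setting stands in for replicate cultures.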
